A study of Mus musculus with 3 samples.

Results

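The Dlk1-Dio3 imprinted locus on mouse chromosome 12 holds one of the largest groups of microRNA (miRNA) genes in mammals, and its miRNAs were followed through the postnatal development of the mouse retina. The members were chosen by name: every mature form, from either arm (5p or 3p), of 52 hairpins of the locus, from miR-770 beside Meg3 to miR-1247 beside Dio3. They made up 104 of the 1915 mature miRNAs listed for each library. Small RNA libraries were made from retinas of C57BL/6 mice aged 1, 7 and 17 days after birth, named P1, P7 and P17. Each age had 1 library, prepared from pooled retinas of 5 eyes, and all mice were without any treatment or engineered allele named in the labels. Because there was no second library of any age, no difference between ages could be tested, and the 95% intervals below, like the detection floor, describe counting error alone. The intervals treat each read as independent. PCR copies cannot be recognised without molecular identifiers, so the intervals may be too narrow even for counting error. Levels are given in RPM, the reads of a mature miRNA per 1000000 miRNA reads of its library.

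A miRNA is cut from a hairpin precursor, and 1 or both arms can be loaded into the silencing complex, where the seed (bases 2 to 8) does most of the pairing with messenger RNAs. At the Dlk1-Dio3 locus the long noncoding RNAs Meg3, Rian and Mirg and the miRNAs are made from the maternal chromosome, while the protein-coding genes Dlk1, Rtl1 and Dio3 are active on the paternal chromosome. Several of the miRNAs lie opposite Rtl1 and pair perfectly with its mRNA, and the cluster from miR-379 to miR-410 is known for its expression in neurons, where miR-134 limits the size of dendritic spines.

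Mature sequences from RefSeq (GRCm38.p6) were matched to 100 of the 104 members. Those not matched were miR-376c-3p, miR-485-5p, miR-487b-3p and miR-539-3p. Printed first are abundant forms of the locus, with miR-300-3p as a near copy of miR-381-3p, then the 5 pairs of forms that share a seed, then forms with a large difference between ages in level or arm use and the arms of miR-369, whose leading arm differed between ages. Each is written 5′ to 3′, with seed bases 2 to 8 in capitals.
miR-127-3p: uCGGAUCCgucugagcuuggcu
miR-434-5p: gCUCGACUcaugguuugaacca
miR-370-3p: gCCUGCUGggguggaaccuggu
miR-541-5p: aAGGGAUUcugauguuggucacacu
miR-381-3p: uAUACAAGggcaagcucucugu
miR-300-3p: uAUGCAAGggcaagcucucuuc
miR-411-5p: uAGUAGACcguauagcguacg
miR-379-5p: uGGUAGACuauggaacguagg
miR-1193-5p: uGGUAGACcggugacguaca
miR-379-3p: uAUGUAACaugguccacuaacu
miR-411-3p: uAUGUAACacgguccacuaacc
miR-1193-3p: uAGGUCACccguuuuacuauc
miR-370-5p: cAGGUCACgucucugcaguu
miR-299a-3p: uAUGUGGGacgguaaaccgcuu
miR-299b-3p: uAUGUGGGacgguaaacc
miR-376b-5p: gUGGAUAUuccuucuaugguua
miR-376c-5p: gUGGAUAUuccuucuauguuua
miR-1247-5p: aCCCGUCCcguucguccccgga
miR-1247-3p: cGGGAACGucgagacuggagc
miR-679-5p: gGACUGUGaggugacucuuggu
miR-410-5p: aGGUUGUCugugaugaguucg
miR-668-3p: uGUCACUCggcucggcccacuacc
miR-431-5p: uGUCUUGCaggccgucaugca
miR-369-5p: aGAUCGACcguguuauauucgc
miR-369-3p: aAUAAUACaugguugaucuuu

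The members differed widely in sequence. The 84 matched forms that passed the abundance filter (an average of 1 RPM or more across the libraries) carried 79 different seeds, and only the 5 pairs printed above shared one. Their lengths ran from 18 to 25 bases, and they began with U in 35 forms, A in 28, C in 11 and G in 10. Some forms were nearly the same along their whole length. The difference between miR-300-3p and miR-381-3p was G4A U21G C22U, counted from 1 at the 5′ end with the base of miR-300-3p first, so that a single base changed inside the seed. MiR-376b-5p and miR-376c-5p differed only by G19U, and miR-299b-3p was identical to the first 18 bases of miR-299a-3p. How reads were divided between such forms is not given in the sources used here, so the separate counts of these pairs are uncertain.

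The P1, P7 and P17 libraries held 11426320, 12759995 and 11659722 miRNA reads, so that 1 read was worth 0.0784 to 0.0875 RPM and the floor of 3 reads lay between 0.235 and 0.263 RPM. Markers of neural tissue were present at every age, with miR-124 and miR-9 together at 15.3%, 13.5% and 9.24% of the reads. The lower sum came from miR-9, whose arms were lower at each age, with miR-9-5p at 144259, 125762 and 74010.5 RPM. MiR-124-3p was instead higher at each age, with 1543.98, 2054.78 and 12777.1 RPM, and miR-124-5p was highest at P7. The sensory neuron miRNAs miR-183, miR-96 and miR-182 took 7.85%, 30.6% and 30.2% of the reads. RPM values add up to a fixed total, so a higher share of some miRNAs goes with a lower summed RPM of the others. On the RPM scale the median log2 change of all 648 miRNAs past the filter was -0.87 from P1 to P7, -0.05 from P7 to P17 and -0.91 from P1 to P17. Size factors by the median of ratios, chosen so that the typical miRNA is level, set these medians at -0.04, 0.03 and 0.01. A library total without the miRNAs among the 10 most abundant of any library gave -0.36, -0.29 and -0.63. The cause of the lower medians in RPM was not tested. Changes in RPM are therefore given beside the median of all miRNAs or the value with median-of-ratios factors, or levels are given as a share of the locus reads, which no scaling alters.

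Reads were found for 102 of the 104 members in the P1 library, 99 in the P7 library and 97 in the P17 library. Of all 1915 listed miRNAs, 1169, 1047 and 1045 had a read in these libraries. MiR-1197-5p and miR-654-5p had none in any library. The filter was passed by 87 members from 51 hairpins and failed by 17, with miR-679-3p just inside at a mean of 1.09 RPM and miR-487b-5p just outside at 0.93 RPM. It was passed by 648 of the 1915 listed miRNAs. The mean levels of the members past the filter spanned a range of 5261-fold. At least 100 RPM was reached by 34, 26 and 31 members at the 3 ages in turn, a count made for the members only. None of the members belonged to the 10 most abundant miRNAs of any library, and 10, 10 and 12 of them were among the first 100 at P1, P7 and P17.

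Together the locus miRNAs had 381851, 240133 and 272545 reads in the libraries of successive ages. As shares of all miRNA reads these were 3.34% (95% Wilson interval 3.33 to 3.35), 1.88% (1.87 to 1.89) and 2.34% (2.33 to 2.35). In RPM the locus was thus highest at P1 and lowest at P7. The log2 ratio of the sums was -0.83 from P1 to P7, and it became 0.13 with median-of-ratios factors, 0.16 with TMM factors and -0.20 with a library total that left out the 13 miRNAs among the 10 most abundant of any library. From P7 to P17 the sum was higher on each of these scales, with a log2 ratio of 0.31 in RPM, 0.40 with median-of-ratios factors, 0.37 with TMM factors and 0.068 without the most abundant miRNAs. From P1 to P17 the log2 ratio was -0.52 in RPM and -0.14 without the most abundant miRNAs, but 0.53 with both size-factor methods. The difference between P1 and P17 in the summed level thus had a direction only relative to a chosen scale. In pooled whole retina, fewer cells of a type and less miRNA per cell cannot be told apart.

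The sums of the retinal pigment epithelium and erythroid marker lists had the same order of ages as the summed locus level, but several forms in them did not. The retinal pigment epithelium miRNAs miR-204 and miR-211, all 4 forms with reads, summed to 15315, 7261 and 14456 RPM. MiR-204-5p and miR-204-3p had the order of the locus, with miR-204-5p at 14661.5, 6967.17 and 9019.25 RPM. MiR-211-5p and miR-211-3p were highest at P17, with miR-211-5p at 549.7, 258.62 and 5314.53 RPM. The erythroid list of 5 forms, led by miR-486a-5p, summed to 163, 118 and 161 RPM. Of these forms only miR-451a was highest at P1, with 45.51, 11.68 and 27.87 RPM. The others were highest at P17, among them miR-486a-5p with 114.73, 102.74 and 124.71 RPM. The skeletal muscle list was also lowest at P7 but highest at P17, with sums of 133, 90.0 and 240 RPM, and had reads in 4 of 7 forms, mostly of miR-1a-3p, with miR-1a-1-5p, miR-1a-2-5p and miR-206-5p at 0. Endothelial miR-126a and the mural cell miRNAs miR-143 and miR-145a had another order, from 1261 to 3643 to 8530 RPM and from 199 to 384 to 1523 RPM. The leukocyte list was between 13.7 and 36.3 RPM. The part of other cell types in the locus values was not tested.

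The changes of single members lay closer together than those of miRNAs in general, and around a higher median. Among the 87 members past the filter, the median log2 change, computed as the difference of log2(RPM + 1), was -0.73 from P1 to P7, against -0.87 over all 648 miRNAs. From P7 to P17 it was 0.33 against -0.05, and from P1 to P17 it was -0.51 against -0.91. The locus median was therefore 0.14, 0.38 and 0.40 above that of all miRNAs in the 3 comparisons, and with median-of-ratios factors the same differences were 0.22, 0.38 and 0.53. The interquartile range of the changes was also smaller in the locus, at 0.71, 0.91 and 1.03, than over all miRNAs, at 1.03, 1.15 and 1.95. No test of these differences was possible without replicate libraries.

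**Figure D1:**
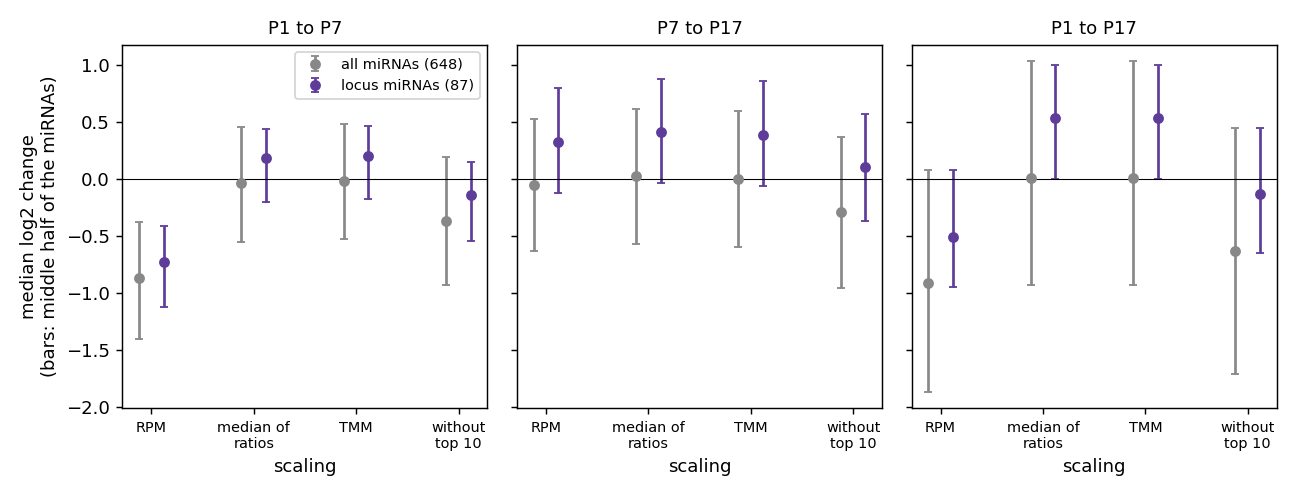
Median log2 change (vertical axis) of the 87 locus miRNAs and of all 648 miRNAs past the filter under 4 scalings (horizontal axis), with a panel for each pair of ages and bars from the first to the third quartile. The locus median lies above the median of all miRNAs in every panel and scaling, while its sign in the comparisons of P1 with P7 and P17 depends on the scaling.

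On the RPM scale 30 of the 87 members were over 2-fold lower at P7 than at P1, where 44.8% of all miRNAs were, and 0 were over 2-fold higher, against 3.09%. From P7 to P17, 2 members were over 2-fold lower (11.6% of all miRNAs) and 13 over 2-fold higher (14.0%). The 2 lower ones were miR-679-5p and miR-494-3p. From P1 to P17, 21 members were lower (46.8%) and 4 higher (10.5%), the latter being miR-376b-5p, miR-668-3p, miR-770-5p and miR-341-5p. With median-of-ratios factors these counts turned. From P1 to P17, 4 members were then over 2-fold lower, against 23.9% of all miRNAs, and 22 over 2-fold higher, against 25.5%. The 4 lower members under that scaling were both arms of miR-1247, miR-679-5p and miR-410-5p. From P1 to P7 the median-of-ratios counts were 2 lower (11.3%) and 3 higher (9.57%), and from P7 to P17 they were 2 lower (10.6%) and 17 higher (16.0%).

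A level that was lowest at P7 was the most frequent course in RPM. It was found in 57 of the 87 members, or 65.5%, against 37.7% of all miRNAs. Lower values at each step were found in 25 members, or 28.7%, against 48.8%. Higher values at each step occurred in 3 members, miR-376b-5p, miR-376c-5p and miR-337-3p, against 10.5% of all miRNAs, and miR-667-5p and miR-377-3p were highest at P7. With median-of-ratios factors 38 members were higher at each step (43.7%, against 30.7% of all miRNAs), 26 were lowest at P7 (29.9%, against 20.1%) and 6 were lower at each step (6.90%, against 31.2%). Most of these steps exceeded counting error. The exact 95% binomial interval of the RPM ratio lay below 0 on the log2 scale for 65 members from P1 to P7 and held 0 for 21, and from P7 to P17 it lay above 0 for 50, below 0 for 17 and held 0 for 20. These intervals were computed for the members only, so no share over all miRNAs stands beside them. In RPM, changes of any size were below 0 in 94.3% of the members from P1 to P7, against 86.4% of all miRNAs. From P7 to P17 they were below 0 in 31.0%, against 51.9%.

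**Figure D2:**
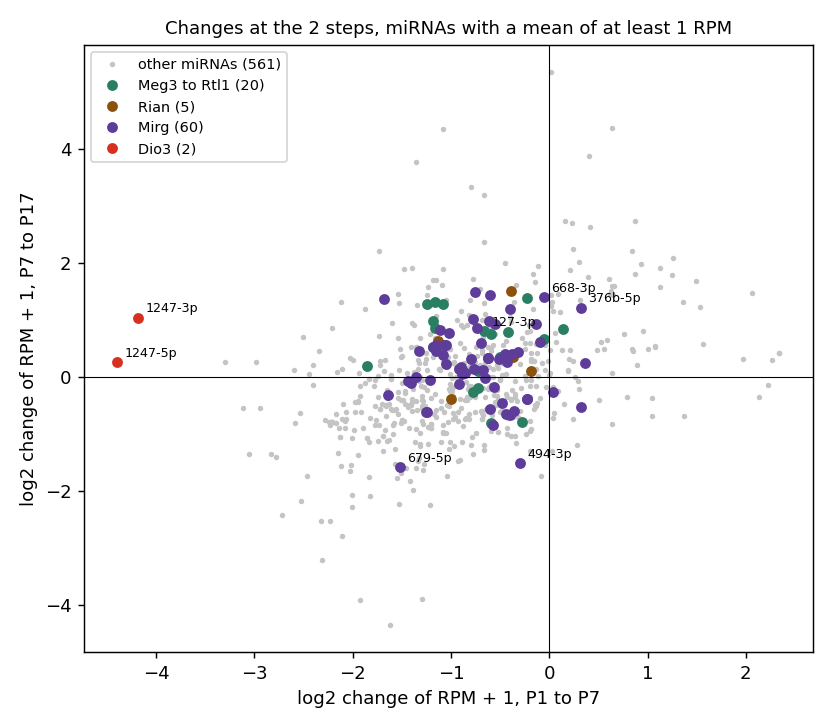
Log2 change of RPM + 1 at the step from P1 to P7 (horizontal axis) and at the step from P7 to P17 (vertical axis) for each miRNA past the filter, with locus members coloured by their stretch of the locus and all other miRNAs in grey. Most locus members lie to the left of 0 and above 0, the arms of miR-1247 stand far to the left, and with median-of-ratios factors the points would lie further right, with 55 of the 87 members above 0 at the first step.

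The reads of the locus were concentrated in a few forms. The most abundant form of each library held 18.9%, 21.2% and 29.8% of the locus reads at P1, P7 and P17, and the first 10 forms held 75.6%, 77.1% and 72.4%. The most abundant form was miR-127-3p at each age. The stretch from Meg3 to Rtl1 (11 hairpins) held 41.9%, 45.0% and 51.1% of the locus reads at these ages. The Rian stretch (3 hairpins) held 11.1%, 9.75% and 6.68%. The Mirg stretch, from miR-379 to miR-410 (37 hairpins), held 46.8%, 45.2% and 42.2%. These shares do not depend on the scaling, but the higher share of the stretch from Meg3 to Rtl1 at P17 rested on miR-127. With both arms of miR-127 left out of the stretch and of the locus, an alternative chosen after seeing the data, this stretch held 27.8%, 29.5% and 29.2% of the remaining reads, the Rian stretch 13.8%, 12.5% and 9.67%, and the Mirg stretch 58.1%, 58.0% and 61.1%.

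Of the 52 hairpins, 51 lay within 180 kb, from chr12:109563692 to 109743795 of GRCm38, and 50 of 52 were on the plus strand (only miR-299b and miR-1247 were on the minus strand). In the GENCODE annotation miR-770 was inside an exon of Meg3, and miR-431, miR-433, miR-127, miR-434 and miR-136 were inside an exon of Rtl1 on the opposite strand. MiR-341, miR-1188 and miR-370 were in introns of Rian. The annotated Mirg transcript (chr12:109729764-109749460) contained 12 hairpins, of which 4 were exonic, 4 partly exonic and 4 intronic. The hairpin of miR-1247 was inside an exon of Dio3os, 534 kb beyond miR-410, and the remaining 30 hairpins were outside these genes.

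**Figure D3:**
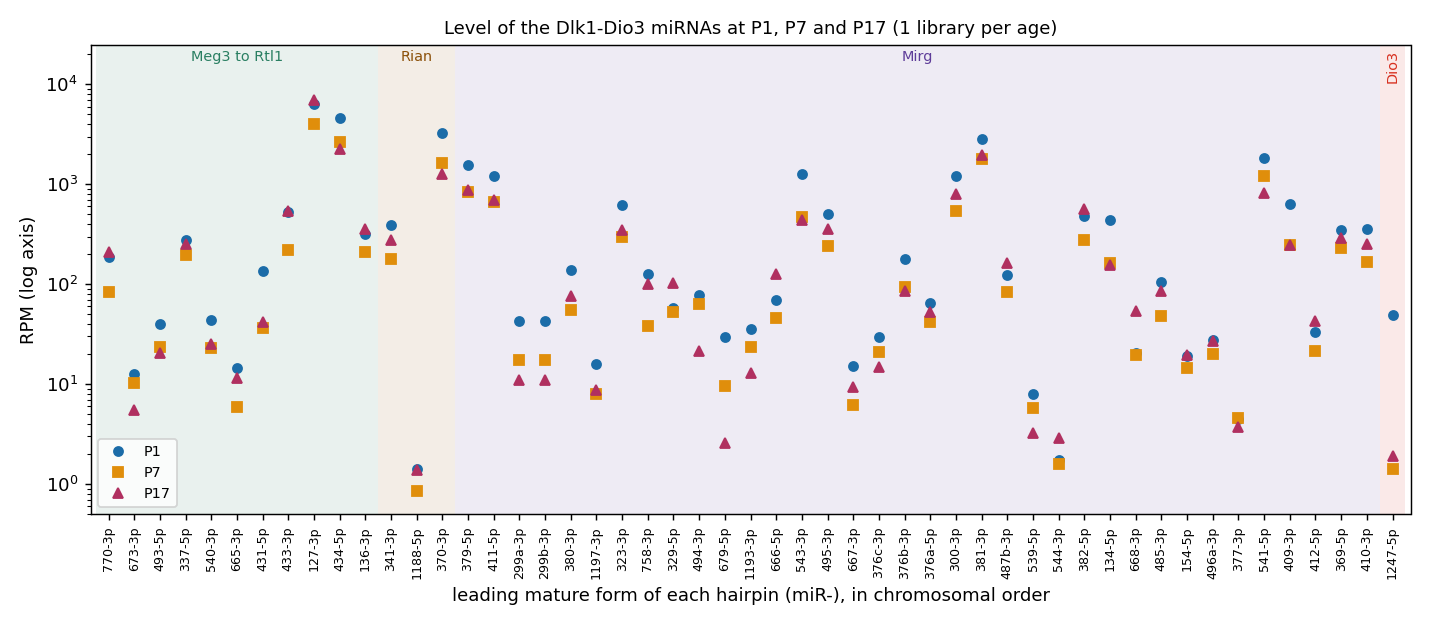
Level in RPM (vertical log axis) at P1, P7 and P17 of the leading mature form of each of the 51 hairpins with a form past the filter, placed in chromosomal order (horizontal axis) and shaded by stretch. Neighbouring hairpins differ in level by large factors, and miR-1247-5p at the far end has 49.7, 1.41 and 1.89 RPM.

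Among the miRNAs opposite Rtl1, miR-127-3p (hairpin at chr12:109592846-109592915), whose pairing with Rtl1 mRNA leads to its cleavage, was the most abundant. The P1 library held it at 6313 RPM (95% Wilson interval 6267 to 6359), the P7 library at 3985 RPM (3951 to 4020) and the P17 library at 6957 RPM (6909 to 7005). The level was lowest at P7 and about the same at P1 and P17 in RPM, with a log2 change from P1 to P17 of 0.14, which was 1.05 above the median of all miRNAs and 1.19 with median-of-ratios factors. As a share of the locus reads it went from 18.9% (18.77 to 19.02) to 29.8% (29.59 to 29.93). Without both arms of miR-127 the log2 ratio of the summed locus level was -0.87 from P1 to P7, 0.14 from P7 to P17 and -0.74 from P1 to P17, so that 1 hairpin carried a large part of the higher sum at P17.

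Less than 2 kb away, miR-434-5p (hairpin at chr12:109594506-109594599) had the second highest mean level, with 4589, 2674 and 2232 RPM at the successive ages. Its level was lower at each age, with a log2 change from P1 to P17 of -1.04 in RPM but 0.01 with median-of-ratios factors. Its share of the locus reads was 13.7% at P1 and 9.55% at P17. The other arm, miR-434-3p, had 1117, 674 and 724 RPM, a log2 change of -0.63 in RPM and 0.42 with median-of-ratios factors. MiR-433-3p had 525, 221 and 537 RPM, so P1 and P17 were close and P7 was lower. The interval of its log2 ratio from P1 to P17 held 0 (-0.02 to 0.08), and with median-of-ratios factors the change was 1.07.

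In the Rian stretch most reads came from miR-370-3p (hairpin at chr12:109618258-109618336), with 89.1%, 89.7% and 81.0% of the reads of the stretch. Its levels were 3299 RPM (3265 to 3332), 1646 RPM (1624 to 1668) and 1265 RPM (1245 to 1286) at P1, P7 and P17. The level was lower at each age, by -1.38 on the log2 scale from P1 to P17 in RPM and by -0.34 with median-of-ratios factors, one of the few abundant forms that were lower on both scales. Its share of the locus reads was 9.87% at P1 and 5.41% at P17.

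**Figure D4:**
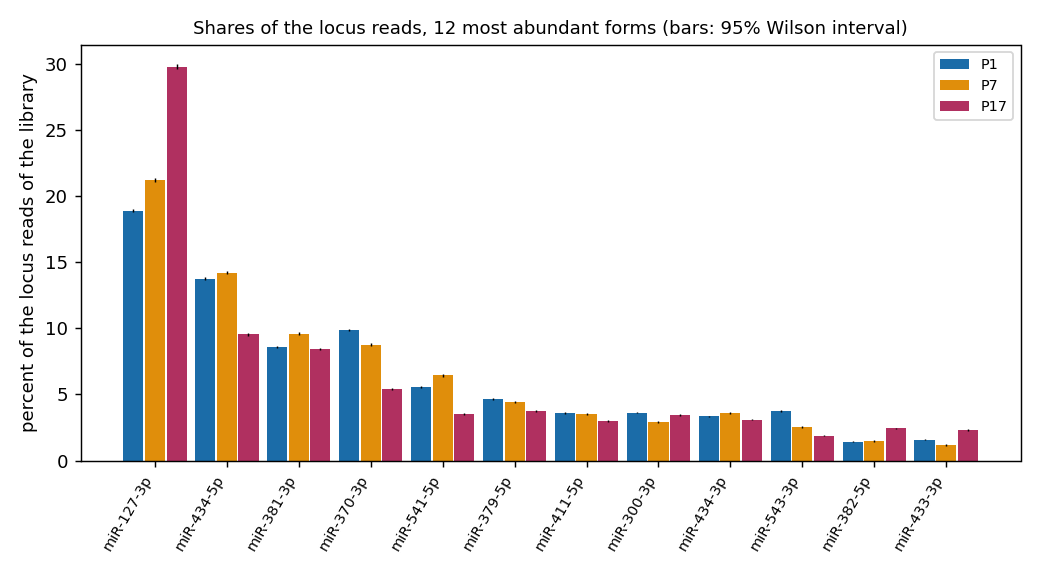
Percent of the locus reads of each library (vertical axis) held by the 12 members with the highest mean RPM (horizontal axis), with a bar for each age and 95% Wilson intervals. MiR-127-3p takes 18.9%, 21.2% and 29.8% at P1, P7 and P17, and miR-434-5p, miR-370-3p and miR-541-5p take smaller shares at P17 than at P1.

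In the Mirg stretch, miR-381-3p led with 2868, 1802 and 1970 RPM, or 8.58%, 9.58% and 8.43% of the locus reads. Its share of the locus was thus highest at P7, and its log2 change from P1 to P17 was -0.54 in RPM and 0.50 with median-of-ratios factors. MiR-300-3p, its near copy from a hairpin less than 3 kb away, had 1213, 544 and 804 RPM. MiR-541-5p had 1847, 1212 and 823 RPM, lower at each age, with a log2 change from P1 to P17 of -1.16 in RPM and -0.12 with median-of-ratios factors. It held 5.53% of the locus reads at P1 and 3.52% at P17.

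MiR-379-5p, the first miRNA of the neuronal cluster, had 1548, 836 and 874 RPM at P1, P7 and P17. Its neighbour miR-411-5p had 1207, 667 and 704 RPM. Both were higher at P1 than at the later ages in RPM, with log2 changes from P1 to P17 of -0.83 and -0.78, and with median-of-ratios factors the changes were 0.22 and 0.27. MiR-543-3p had 1259, 473 and 438 RPM, a log2 change of -1.52 in RPM and -0.48 with median-of-ratios factors. MiR-382-5p had 478, 279 and 567 RPM and was higher at P17 than at P1 on both scales, by 0.25 and 1.29. Among the 12 most abundant forms, miR-127-3p, miR-382-5p and miR-433-3p therefore had the smallest differences between P1 and P17 in RPM, and the same 3 forms gained share within the locus.

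The lowest ratios between P1 and the later ages belonged to miR-1247 (hairpin at chr12:110278048-110278129), which lies apart from the other hairpins beside Dio3, the gene of the enzyme that inactivates thyroid hormone. MiR-1247-5p had 568, 18 and 22 reads, or 49.7, 1.41 and 1.89 RPM. MiR-1247-3p had 358, 10 and 31 reads. For both arms together the P7 to P1 log2 ratio was -5.21, with an exact 95% interval from -5.80 to -4.67, and the P17 to P7 log2 ratio was 1.05 (0.36 to 1.77). On the log2(RPM + 1) scale the changes from P1 to P17 were -4.13 for the 5p arm and -3.14 for the 3p arm, and with median-of-ratios factors they were -3.23 and -2.22. The change of miR-1247-5p from P1 to P7 was the lowest of all 648 miRNAs past the filter.

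After miR-1247, the lowest change from P1 to P17 was that of miR-679-5p, with 336, 123 and 30 reads. It was lower at both steps, from 29.4 to 9.64 to 2.57 RPM, and its log2 change of -3.09 was -2.17 with median-of-ratios factors. MiR-410-5p had 125, 36 and 24 reads and a log2 change of -1.96 in RPM and -1.10 with median-of-ratios factors. MiR-299a-3p had 489, 221 and 128 reads, and miR-299b-3p had 490, 224 and 129. The counts of these last forms nearly coincided, those of miR-299a-5p and miR-299b-5p were the same in each library at 48, 44 and 28, and the hairpins overlap on opposite strands, so they cannot be read as separate measurements. Their log2 changes from P1 to P17 were -1.87 and -1.86 in RPM and -0.87 and -0.86 with median-of-ratios factors.

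The highest change from P1 to P17 was that of miR-376b-5p, with 278, 391 and 844 reads, or 24.3, 30.6 and 72.4 RPM. It was higher at each age, and its log2 change was 1.53 in RPM and 2.54 with median-of-ratios factors. MiR-668-3p had 234, 251 and 626 reads, a log2 change of 1.35 in RPM and 2.35 with median-of-ratios factors. MiR-770-5p had 117, 110 and 282 reads, with changes of 1.16 and 2.12. For miR-668-3p and miR-770-5p the interval of the RPM ratio from P1 to P7 held 0, whereas with median-of-ratios factors the changes at that step were 0.85 and 0.64. MiR-341-5p had 60, 48 and 146 reads, with changes of 1.11 and 2.01 on these scales. MiR-666-5p had 797, 583 and 1460 reads, with changes of 0.84 and 1.87. MiR-337-3p had only 16, 21 and 44 reads, and its changes of 0.99 and 1.66 rest on these few reads. Of these 6 forms, 4 (miR-376b-5p, miR-770-5p, miR-341-5p and miR-337-3p) were the less abundant arm of their hairpin.

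Members that share a seed could differ widely in level. MiR-379-5p and miR-1193-5p both carry GGUAGAC, but the first had 17693 reads at P1 and the second 32, with 20 at P7 and 15 at P17. MiR-1193-3p had 410, 303 and 150 reads, whereas miR-370-5p, which shares AGGUCAC with it, had 97, 94 and 93. Their log2 changes from P1 to P17 were -1.41 and -0.08 in RPM and -0.41 and 0.84 with median-of-ratios factors. MiR-411-3p had 1248, 592 and 522 reads and miR-379-3p had 431, 210 and 269, with the seed AUGUAAC in both. MiR-376c-5p had 28, 44 and 50 reads against 278, 391 and 844 for miR-376b-5p, which differs from it by 1 base outside the seed. The forms miR-376b-5p and miR-376c-5p were higher at each age in RPM, with log2 changes from P1 to P17 of 1.53 and 0.62, and of 2.54 and 1.37 with median-of-ratios factors.

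The use of the arms of a hairpin was compared next, since the 5p to 3p ratio within a library does not depend on the scaling. Both arms passed the filter in 36 locus hairpins. The 5p arm had more reads at every age in 14 of them and the 3p arm in 18, and 4 hairpins (miR-1247, miR-369, miR-673 and miR-377) differed between ages. These counts of the leading arm were made for the locus hairpins only. From P1 to P17 the ratio changed over 2-fold in 17 of the 36, toward 5p in 11 and toward 3p in 6, while it did so in 36.8% of all 190 hairpins with both arms past the filter. Of those 190, 37 changed toward 5p and 33 toward 3p. Both miR-299a and miR-299b, which cannot be read as separate measurements, were counted among the 17 and among the 11. The interval for counting error did not hold 0 in 23 of the 36, a count made for the locus hairpins only, with no share over all hairpins beside it. The hairpins of the 12 most abundant forms were mixed in this respect. The log2 change of the ratio was 0.04 in miR-541, -0.12 in miR-379, -0.20 in miR-300, 0.23 in miR-127 and -0.26 in miR-433, but -0.41 in miR-434, 0.51 in miR-411, 0.87 in miR-382 and 1.29 (0.87 to 1.72) in miR-370. MiR-381 and miR-543 had an arm below the filter.

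The highest change of arm use was in miR-376b. Its 5p and 3p arms had 278 and 2022 reads in the P1 library, 391 and 1188 in the P7 library and 844 and 993 in the P17 library. The 5p arm thus went from 12.1% of the reads of the hairpin at P1 (95% Wilson interval 10.8 to 13.5) to 24.8% at P7 (22.7 to 27.0) and 45.9% at P17 (43.7 to 48.2), a log2 change of the ratio of 2.63 (exact interval 2.40 to 2.86). MiR-376c, with fewer reads, went from 28 and 338 reads at P1 to 50 and 175 at P17, a log2 change of 1.79 (1.03 to 2.56). Since miR-376b-5p and miR-376c-5p differ by 1 base, the division of reads between these 5p arms is uncertain. MiR-431, opposite Rtl1, moved the other way, from 1540 and 379 reads at P1 to 467 and 194 at P7 and 488 and 445 at P17, so that its 5p arm went from 80.3% to 70.7% to 52.3%. The log2 change of its ratio was -1.89 (-2.14 to -1.64).

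MiR-410 had 125 and 4061 reads at P1 and 24 and 2912 at P17, a log2 change of the 5p to 3p ratio of -1.90 (-2.60 to -1.26). MiR-341 had 60 and 4450 reads at P1 and 146 and 3205 at P17, a log2 change of 1.76 (1.31 to 2.22). MiR-337 had 3170 and 16 reads at P1 and 2914 and 44 at P17, a log2 change of -1.58 (-2.51 to -0.72). In these 3 hairpins 1 arm held over 95% of the reads at each age, so the ratio rests on a rare arm. How much each arm changed depends on the scaling. MiR-410-3p, for example, changed from P1 to P17 by -0.51 in RPM and by 0.53 with median-of-ratios factors. Between miR-412 and miR-410, miR-369 changed its leading arm, a case picked after its values were seen. Its 5p and 3p arms had 4024 and 2326 reads in the P1 library, 2910 and 1529 in the P7 library and 3363 and 3942 in the P17 library. The 5p arm held 63.4% (62.2 to 64.5), 65.6% (64.1 to 66.9) and 46.0% (44.9 to 47.2) of the reads, and the log2 change of the ratio from P1 to P17 was -1.02 (-1.12 to -0.92).

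**Figure D5:**
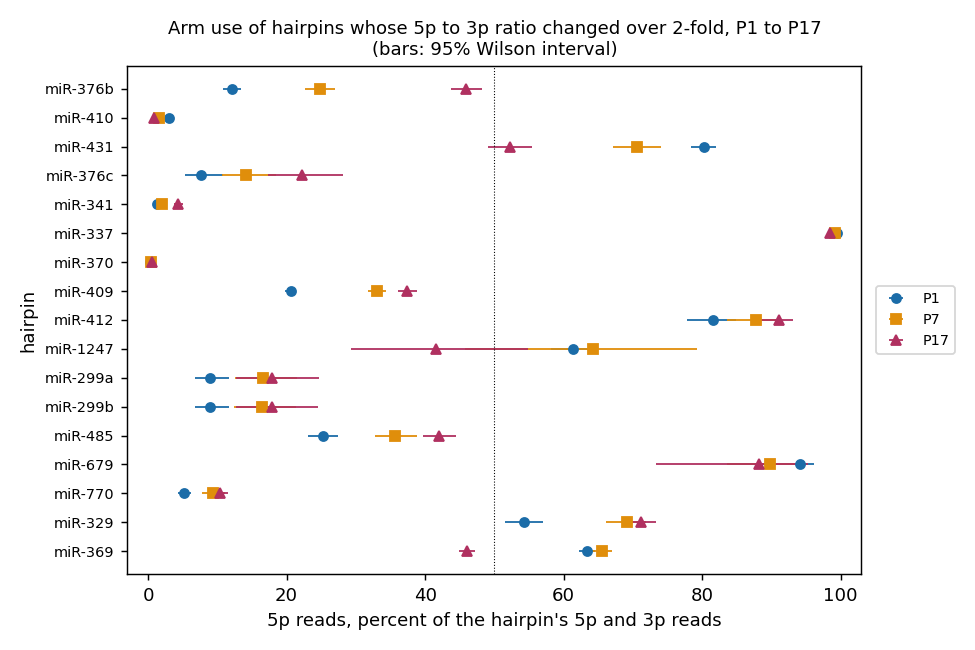
Percent of the 5p and 3p reads of a hairpin that came from the 5p arm (horizontal axis) at P1, P7 and P17, for the 17 locus hairpins (vertical axis) whose ratio changed over 2-fold from P1 to P17, with 95% Wilson intervals for counting error. In miR-376b the 5p share goes from 12.1% to 45.9%, and in miR-431 it goes from 80.3% to 52.3%.

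The leading forms of neighbouring hairpins did not all keep a fixed ratio. Over the 50 pairs of adjacent leading forms, the median absolute difference between their log2 changes from P1 to P17 was 0.76, and 21 pairs differed by over 1, that is by over 2-fold. Among these 50 were the overlapping miR-299a and miR-299b, miR-370 with miR-379 (90723 bases apart) and miR-410 with miR-1247 (534 kb apart). No such value was computed for forms that are not adjacent, so closeness on the chromosome was not tested. The pairs named next were chosen after their values were seen. The ratio of miR-127-3p to miR-434-5p was 1.38, 1.49 and 3.12 at the successive ages, a log2 change from P1 to P17 of 1.18 (1.15 to 1.20). The ratio of miR-433-3p to miR-431-5p was 3.90, 6.05 and 12.8, with a log2 change of 1.72 (1.56 to 1.88). This depended on the arm of miR-431. From P1 to P17 the log2 changes in RPM were -1.66 for miR-431-5p, 0.20 for miR-431-3p and 0.03 for miR-433-3p. The ratio of miR-382-5p to miR-134-5p, whose hairpins lie 292 bases apart, was 1.08, 1.72 and 3.66, with a log2 change of 1.75 (1.66 to 1.85). Other pairs were at P17 near the ratio they had at P1. MiR-379-5p over miR-411-5p was 1.28, 1.25 and 1.24, with a log2 change of -0.05 (-0.10 to 0.01), and miR-381-3p over miR-300-3p was 2.36, 3.31 and 2.45. The 3p arms of miR-379 and miR-411 did not stay as near. MiR-379-3p over miR-411-3p was 0.345, 0.355 and 0.515, with a log2 change of 0.58 (0.31 to 0.85).

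Other imprinted miRNA genes and another large miRNA cluster were set beside the locus. Of 10 listed miRNAs from Mest, Igf2, H19 and Nespas, 8 passed the filter, and they held 0.275%, 0.114% and 0.0936% of the reads. Their median log2 changes were -1.05 for the step to P7 and -0.35 for the step to P17 in RPM, and -0.12 and -0.29 with median-of-ratios factors. The miRNAs of the Sfmbt2 cluster (80 listed, 48 past the filter) held 0.487%, 0.140% and 0.0858% of the reads. All 48 were over 2-fold lower at P17 than at P1 in RPM, against 46.8% of all miRNAs. With median-of-ratios factors 38 of the 48 were, against 23.9% of all miRNAs. The median log2 change was then -1.45, against 0.53 for the Dlk1-Dio3 members. Several of the 48 had identical changes in RPM, such as miR-297a-3p, miR-297b-3p and miR-297c-3p, so they cannot all be read as separate measurements. At the second step the medians of both groups lay below that of all miRNAs, by -0.30 and -0.70, while the Dlk1-Dio3 median lay 0.38 above it. With 1 library per age, no test of these differences was possible.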

How the data were processed

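Total RNA of the pooled retinas was made into libraries with a NEBNext small RNA kit, whose adapter ligation captures miRNAs unequally, so levels of different miRNAs within a library are less comparable than 1 miRNA between libraries. After trimming of adaptors and removal of poor reads, the authors' methods name HISAT2 for alignment to mm10, while the submitters' processing notes name FastQC and BWA. The miRNA annotation and the counting rule are not given in the sources used here. For every mature form the authors deposited a count of reads and an RPM value, which equals the count divided by the sum of miRNA counts to within 0.0192 RPM. No columns were left unmapped (0).

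From these, log2(RPM + 1) was computed (pseudocount 1 RPM, which understates changes of rare miRNAs), a mean of at least 1 RPM was required, and a change over 2-fold was counted. This replaced the authors' test, as the design gives no spread between samples. Intervals are 95% Wilson (shares) or exact binomial (ratios). Counts were rescaled with median-of-ratios factors (1.50, 0.862 and 0.743 at P1, P7 and P17, from 644 miRNAs) and TMM factors (1.60, 0.808 and 0.774). Hairpin positions came from GENCODE (GRCm38, equal to mm10), and 52 of 52 hairpins were found. The miRNAs named were the 12 most abundant members, the 6 highest and 6 lowest changes from P1 to P17, forms sharing a seed, the 6 hairpins with the largest change of arm use and forms at the filter's edge, and further ones are said to be chosen after their values were seen or complete a count of a few. Members and lists were chosen with earlier results of these data known. The steps were tested on simulated data. TMM factors came from edgeR 4.0.16 in R 4.3.3, figures from matplotlib 3.10.9, and all else from pandas 2.3.3, scipy 1.17.1 and numpy 2.4.6 in Python 3.11.15.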

Additional observations from a re-analysis of the deposited data

How the results depend on the processing

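No paired analysis was possible because there was a single library of an age, and for the same reason no replicate could be left out. With median-of-ratios factors and with TMM factors, the log2 ratio of the summed locus level became 0.13 and 0.16 at the first step (P1 to P7), 0.40 and 0.37 at the second step, and 0.53 in both over P1 to P17. The locus median log2 change became 0.18 and 0.21 from P1 to P7, and 0.53 and 0.54 from P1 to P17. The sums and medians that compare P1 with P7 or P17 turned in sign. Both methods counted 2 members over 2-fold lower and 3 higher from P1 to P7, and 4 lower and 22 higher from P1 to P17. With TMM factors, 10.6% of all miRNAs were lower and 9.72% higher from P1 to P7, and 23.9% and 25.5% from P1 to P17. MiR-434-5p, over 2-fold lower in RPM, turned to 0.0065 and 0.0074 from P1 to P17. Of the values recomputed for named members and for the stretches of the locus, 99 stayed within their counting interval, 352 left it and 2 reversed. When library totals left out the 10 most abundant miRNAs of any library, the sums gave -0.20, 0.068 and -0.14 over the 3 comparisons. The medians were then -0.14 from P1 to P7 and -0.13 from P1 to P17. Over 2-fold, 5 members were lower (23.0% of all miRNAs) and 1 higher (7.56%) from P1 to P7. From P7 to P17, 6 were lower (23.0%) and 10 higher (12.7%). From P1 to P17, 14 were lower (40.9%) and 10 higher (14.7%). Without miR-127 the sums gave -0.87, 0.14 and -0.74. A pseudocount of 5 RPM gave 1 member lower from P7 to P17 and 2 higher from P1 to P17, and a pseudocount of 0.1 RPM gave 4 lower from P7 to P17. A fold of 1.5 gave 55 lower from P1 to P7, 10 lower and 29 higher from P7 to P17, and 42 lower and 11 higher from P1 to P17. No share over all miRNAs stands beside the counts with other pseudocounts or this fold. The cause was not tested, except that the fold criterion by construction counts more members. Omitting the filter, a filter of 10 RPM, and leaving out miR-299b or miR-1247 (both chosen after seeing the data) moved no count by over 1.5 times and turned no median or sum. Depth limits forms such as miR-1247 at P7, miR-337-3p and miR-1193-5p, which rest on a few reads.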

Other observations

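The same stretch of chromosome 12 held 9 further annotated miRNA hairpins outside the names used here, with 13 mature forms listed. They had 91, 44 and 34 reads in all at P1, P7 and P17, and only miR-3072-3p passed the filter, with 80, 38 and 31 reads. No read of miR-432, miR-453, miR-882, miR-1906, miR-3071 or miR-3544 was listed in any library.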
